A study of Mus musculus with 6 samples.

Results

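Cystine uptake and glutathione synthesis were examined through 8 genes, selected by name among the 27179 genes of the expression table. All 8 were present. B16F10, an established mouse melanoma line labelled as wild type, was exposed for 6 h to OLO (0.01% olive oil, 3 libraries) or to OZO (0.01% of the same kind of oil after ozone treatment, 3 libraries), and total RNA was sequenced. The study describes its replicates as independent experiments. The value analysed for each gene was the authors' average log2 CPM over all 6 libraries, where CPM is the read count of a gene scaled to a common library size. That average joins OLO and OZO libraries in 1 number, so the levels below describe neither oil alone and carry no SD, and OZO against OLO was not analysed here. A gene whose level differs between the oils lies between its levels in the groups, and the order of genes within each oil can differ from the order given here. No order or ratio of levels below could therefore be set against the spread between libraries.

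Glutathione is the main small thiol of the cell, and its supply is usually limited by cysteine. System xc- brings cystine into the cell in exchange for glutamate. It is a pair of proteins, the transporting light chain encoded by Slc7a11 and the heavy chain encoded by Slc3a2, which carries the complex to the membrane. Cystine is reduced to cysteine inside the cell, glutamate-cysteine ligase (Gclc with its modifier Gclm) joins it to glutamate, and glutathione synthetase (Gss) adds glycine. Glutathione reductase (Gsr) returns the oxidised form to the reduced one with NADPH, and the gamma-glutamylcyclotransferases Chac1 and Chac2 break glutathione down in the cytosol. The pathway is known for protecting cells from lipid peroxidation, and transcription factors NRF2 and ATF4 are known to control several of its genes.

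Markers of the labelled cell type were abundant. The 8 melanocyte markers ran from 61.0 CPM for Mc1r to 7052 CPM for Dct (dopachrome tautomerase, a melanin enzyme), whereas the 5 keratinocyte markers stayed under 1 read per library and Krt5 and Dsg3 had none. Fibroblast markers reached 3.28 CPM (Pdgfra), endothelial markers 1.21 CPM (Pecam1) and immune markers 5.47 CPM (Cd68), while Ptprc and Cd3e, which mark leukocytes and T cells, were under 1 read per library. From the 6025 genes without reads, an average library (geometric mean) of 19641945 reads was computed, in which 19.6 reads made up 1 CPM. The depth of each single library is unknown.

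Promoter sequences were taken from a set of RefSeq promoters (GRCm38.p6, the mm10 build). It held 6 of the 8 genes, each with a window of 300 bases, 250 of them before the annotated start. Gclc and Gsr were not in that set, so their promoters were not searched. Short stretches are shown because letters of the sites that NRF2 and ATF4 are known to bind occur in some of these windows. Searched on both strands, the ATF4 element TGATGNAA was present in 2 of the 6 promoters, Slc7a11 and Chac1, and in 3.97% of the 32851 promoters of that length in the table. Slc7a11 held 2 matches on opposite strands, their first bases 19 bases apart, at 66 and 47 bases before the start. Of all promoters, 0.0700% (23) held at least 2 matches. In Chac1 the single match began 193 bases before the start. The stretches are printed 5′ to 3′ along each gene, with the matches in capitals. Slc7a11 lies on the minus strand and its stretch is chr3:50443641-50443691, and Chac1 lies on the plus strand with its stretch at chr2:119351037-119351068.
Slc7a11: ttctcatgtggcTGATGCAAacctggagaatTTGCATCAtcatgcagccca
Chac1: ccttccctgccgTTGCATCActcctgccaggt

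The core of the antioxidant response element, the NRF2 site, was searched as TGACNNNGC on both strands. One promoter of the 6, that of Gclm, held 1 match, 134 bases before the start, against 12.4% of all promoters. Its stretch on the plus strand is chr3:122245411-122245443, again with the match in capitals.
Gclm: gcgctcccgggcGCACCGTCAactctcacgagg

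Neither motif was found in the windows of Slc3a2, Gss and Chac2, and the heat shock core GAANNTTC, searched as a reference and present in 7.86% of all promoters, was found in 0 of the 6. The RefSeq start of Slc3a2 lies 9472 bases downstream of the outermost start that GENCODE gives the gene, so other starts of Slc3a2 were not searched. No match overlapped another. A match is a description of the sequence, and binding was not measured.

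**Figure D1:**
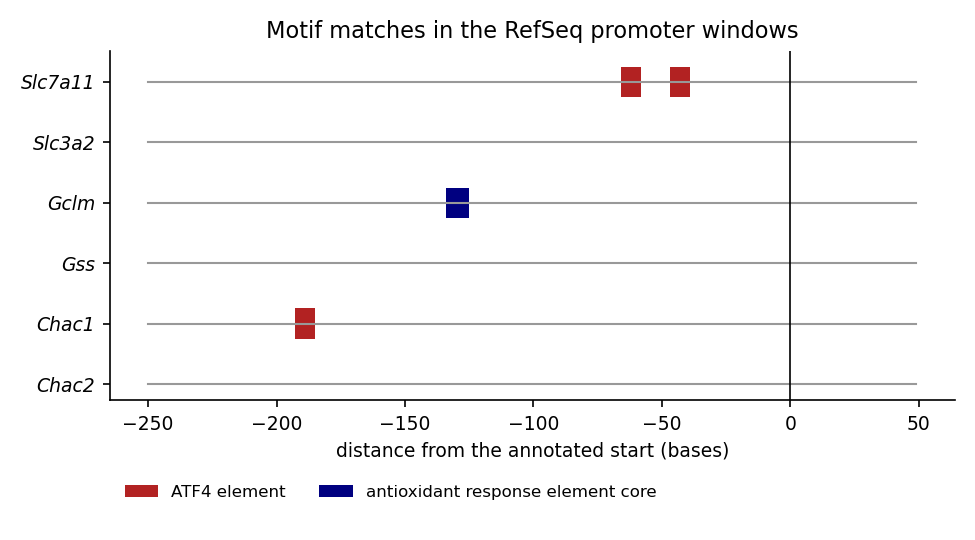
Matches to the ATF4 element (red) and to the antioxidant response element core (blue) in the 6 RefSeq promoter windows, by distance in bases from the annotated start (vertical line). Slc7a11 holds 2 ATF4 matches close to its start, Chac1 holds 1 farther upstream, and Gclm holds 1 antioxidant response match.

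All 8 genes were expressed above the median of all genes in the table, those without reads included. Their median level was 6.22 on the log2 CPM scale, against -1.49 for all genes, and all 8 exceeded 10 CPM, as did 32.3% of the genes in the table. The members were spread over a 33.6-fold range, from 11.1 CPM for Chac2 to 374 CPM for Slc7a11. Per kb of exon union the range was 16.7-fold, from 6.04 CPM per kb for Gss to 101 CPM per kb for Slc3a2. The ends of the range rested on the length used. With the longest transcript they were Chac2 and Slc3a2, and with the coding length Chac2 and Slc7a11. Of the 8 genes, 7 lay in the highest 25% of all genes, and 5 did when only the 21154 genes with reads were ranked. Among the genes with reads, the lowest member, Chac2, lay above 59.5%.

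**Figure D2:**
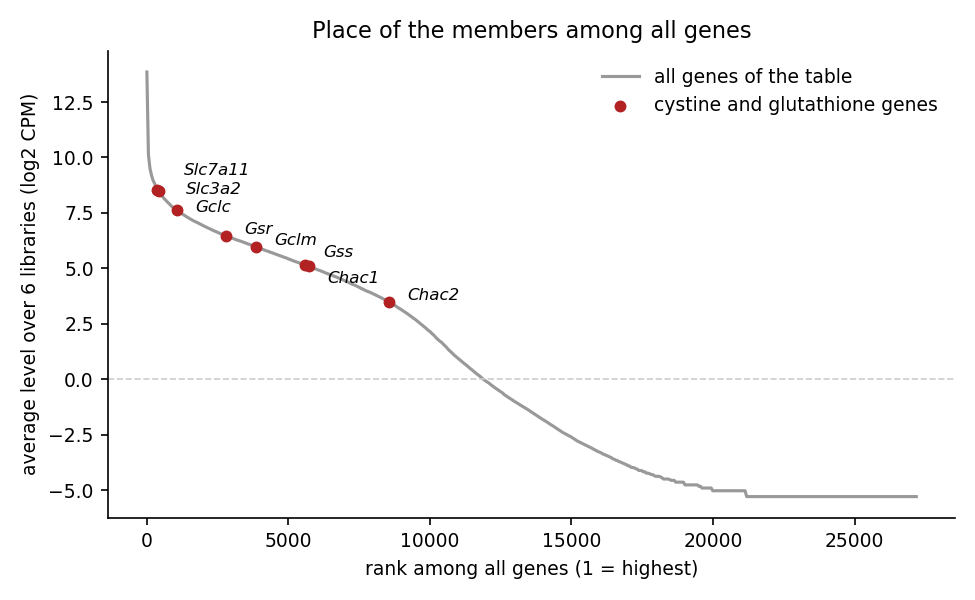
Average level over the 6 libraries (log2 CPM) against rank among all 27179 genes, with the 8 members as red points and a dashed line at 1 CPM. Slc7a11 and Slc3a2 stand near the top at ranks 374 and 414, and Chac2 is the lowest member at rank 8559.

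Both chains of system xc- were abundant by reads, above 98.6% (Slc7a11) and 98.5% (Slc3a2) of all genes. Per kb of exon union they lay above 92.4% and 98.7% of the genes with a length. Slc7a11 (ENSMUSG00000027737), on the minus strand of mm10 chr3:49892526-50443614, averaged 8.55 log2 CPM, or 374 CPM, resting on 7342 reads per library. It ranked 374th among all genes. The gene is annotated with 5 transcripts, of which 2 are coding, and its longest coding transcript has 12 exons and 9223 bases, of which 1506 code for protein. Most of that transcript is thus untranslated. Of the 5 other annotated genes within its span, 0 share exon bases with it. Slc3a2 (ENSMUSG00000010095), on the minus strand of chr19:8706882-8723369, averaged 8.47 log2 CPM, or 356 CPM, from 6984 reads per library, and ranked 414th. Its 10-exon transcript is shorter, 2813 bases with 1695 coding, so that a similar number of reads covered a shorter transcript.

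Levels of different genes are comparable only per length, and the length was taken as the union of all annotated exons. On this scale Slc3a2 was the highest of the 8 genes with 101 CPM per kb, and Slc7a11 came after Gclc and Gsr with 26.8 CPM per kb. The light chain thus had 0.266 times the level of the heavy chain per kb. With the longest transcript in place of the exon union the ratio was 0.321. With the coding length alone it turned to 1.18, above 1, because the long untranslated part of Slc7a11 no longer counted. Which chain had more transcripts could not be settled from these averages, since reads along the transcript were not analysed here.

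Slc3a2 is shared by several light chains, which carry other amino acids. Of 5 other partners on the list, Slc7a5, the large neutral amino acid transporter LAT1, was the highest at 68.5 CPM per kb, and Slc7a6 followed at 13.9 CPM per kb. Slc7a8 (1.55 CPM) and Slc7a10 (under 1 read per library) were the lowest. Slc7a11 made up 24.1% of the summed light chain level per kb of exon union, and Slc7a5 61.5%. Per kb of the longest transcript the shares were 30.5% and 54.4%, and per kb of coding sequence Slc7a11 was the larger, with 54.0% against 36.0%. The heavy chain had 0.904 times the summed level of the 6 light chains on the first scale, 0.952 times on the second and 0.456 times on the third.

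**Figure D3:**
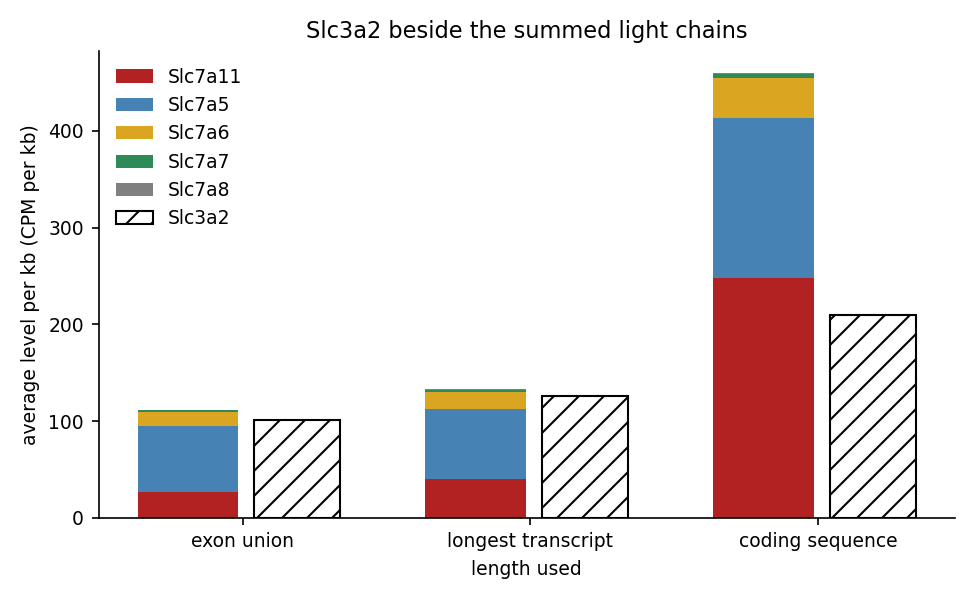
Average level per kb (CPM per kb) of Slc3a2 (hatched bars) beside the stacked levels of its light chains, for 3 measures of length (Slc7a10, under 0.1 CPM per kb, is left out). The stack and the hatched bar are of similar height per kb of exon union and of longest transcript, and the Slc7a11 part grows when only coding bases count.

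Among the synthesis genes the catalytic subunit stood first. Gclc (ENSMUSG00000032350, plus strand of chr9:77754535-77794485), which carries the active site of glutamate-cysteine ligase, averaged 7.62 log2 CPM, or 197 CPM, from 3862 reads per library. Gclm (ENSMUSG00000028124, plus strand of chr3:122245557-122270732), which eases feedback inhibition of the enzyme by glutathione, averaged 5.97 log2 CPM, or 62.6 CPM, from 1229 reads per library. Gss (ENSMUSG00000027610, minus strand of chr2:155563181-155592810) averaged 5.16 log2 CPM, or 35.7 CPM, from 701 reads per library. The reads thus fell in the order Gclc, Gclm and Gss.

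Per kb of exon union, Gclc reached 52.2, Gclm 9.95 and Gss 6.04 CPM per kb. Gclc was 5.25-fold above Gclm per kb of exon union and 5.13-fold per kb of longest transcript. The ratio was 1.35-fold per kb of coding sequence, since 822 of the 5589 bases of the Gclm transcript are coding. Gclc was above Gclm on each of these scales. Gclc was 8.65-fold above Gss per kb of exon union, 5.24-fold per kb of longest transcript and 4.10-fold per kb of coding sequence. Gclm was 1.65-fold above Gss per kb of exon union, 1.02-fold per kb of longest transcript and 3.03-fold per kb of coding sequence. The longest Gss transcript, of 3258 bases, is not the one with the longest coding sequence, which has 1963 bases. With the latter length Gss reached 18.2 CPM per kb against 11.2 for Gclm and was 1.62-fold above it, and Gclc was 3.16-fold above Gss. Which of Gclm and Gss was higher per kb thus rested on the length chosen.

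Some reads of Gclm and Gss could belong to other annotated genes. Gss overlaps 3 genes on the opposite strand, the acetyl-CoA synthetase gene Acss2 (3.92 log2 CPM, shared exons of 395 bases) and the antisense genes Gssos1 and Gssos2. Gclm overlaps Gm17494 on the opposite strand and the pseudogene Gm6061 on its own. Of all stretches of 100 bases in the annotated Gclm transcripts, 3.09% also occur, on either strand, in transcripts of other genes. Among these genes is Ppia, the abundant cyclophilin A gene. For Gss the share was 5.53%, for Slc3a2 1.48% and for Slc7a11 0.251%, and it was 0% for Gclc, Gsr, Chac1 and Chac2. The genes sharing stretches with Gss were the 3 named above, all on its opposite strand. The paper names a directional library kit, but the use of strand in counting is not given in the sources used here.

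Gsr (ENSMUSG00000031584, plus strand of chr8:33652523-33698163), the reductase that restores glutathione, averaged 6.47 log2 CPM, or 88.6 CPM, from 1739 reads per library. Its 13-exon transcript has 2673 bases. Per kb of exon union it reached 32.2 CPM per kb, behind Slc3a2 and Gclc among the 8 genes. Gsr was 5.33-fold above Gss on that scale, 3.02-fold per kb of longest transcript, 2.35-fold per kb of coding sequence and 1.82-fold per kb of the transcript with the longest coding sequence. Gclc was 1.62-fold above Gsr per kb of exon union and 1.74-fold per kb of coding sequence.

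**Figure D4:**
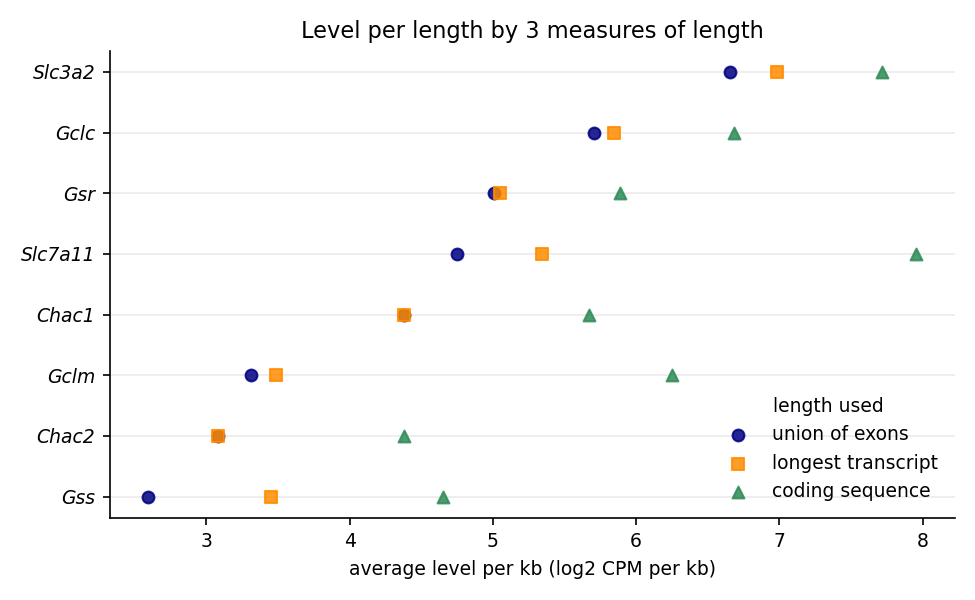
Average level of each member per kb on a log2 scale (log2 CPM per kb), with the length taken as the union of exons (circles), the longest transcript (squares) or the coding sequence (triangles). Slc3a2 and Gclc lead on the first 2 measures, and Slc7a11 moves to the top with coding length.

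The breakdown enzymes were the members with the fewest reads, together with Gss. Chac1 (ENSMUSG00000027313, plus strand of chr2:119351229-119354381), a stress-induced target of ATF4, averaged 5.09 log2 CPM, or 34.1 CPM, from 669 reads per library. Chac2 (ENSMUSG00000020309, minus strand of chr11:30976707-30986350), known as the slower enzyme of the pair, averaged 3.47 log2 CPM, or 11.1 CPM, from 218 reads per library. Both have 3 exons and short transcripts, of 1637 and 1315 bases. Per kb of exon union Chac1 reached 20.8 CPM per kb and Chac2 8.45 CPM per kb, a ratio of 2.46-fold, and the ratio was 2.45-fold per kb of coding sequence. Chac1 was above Chac2 on each scale used.

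Although related, the Chac1 and Chac2 coding sequences are far apart. An alignment of 669 and 534 coding bases paired 509 bases, of which 314 (61.7%) were identical, and the longest identical run was 9 bases. No stretch of 100 bases was shared, so no read of that length would match both exactly. Chac2 lies within the span of Asb3 on the opposite strand, with shared exons of 0 bases.

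Counting error was small beside most of these differences. For single genes it ran from 0.0069 on the log2 scale (Slc7a11) to 0.040 (Chac2, with the fewest reads), for the ratio of Chac1 to Chac2 it was 0.046, and differences between libraries were not part of it. The difference between Gss and Gclm per kb of longest transcript, -0.031 on the log2 scale, was close to its counting error of 0.028.

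The 48 other genes in 5 related lists all had reads, and 36 of them exceeded 1 CPM, as did 43.7% of all genes. Within each list, the highest and lowest genes were taken by CPM, which is not scaled by length. Of the 14 genes of cystine and cysteine supply, 9 exceeded 1 CPM, with Mat2a (486 CPM), which makes S-adenosylmethionine, and Ahcy (164 CPM), which hydrolyses S-adenosylhomocysteine, the highest. The cystine transporter gene Slc7a9 (0.139 CPM) and Slc7a10 were the lowest. Cth, which makes cysteine by transsulfuration, stood at 22.3 CPM, and Cbs, the enzyme before it, at 0.962 CPM. These 2 genes and Mfsd12, needed for cysteine import into melanosomes at 3.98 CPM, were named after their values were seen.

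The 11 genes of the gamma-glutamyl cycle include enzymes that act on glutathione outside the cell and enzymes of the cytosol. Of these, 5 (Lap3, Ggt7, Ggct, Oplah and Ggt1) exceeded 1 CPM, a share near that of all genes, and the list median was 0.486 CPM. Lap3, a leucine aminopeptidase, was highest at 83.9 CPM, followed by Ggt7 at 35.3 CPM, whereas Ggt6 and the dipeptidase gene Dpep2 were under 1 read per library. Ggct (8.93 CPM), which like the Chac enzymes is a gamma-glutamylcyclotransferase, Oplah (3.33 CPM), the oxoprolinase, and Ggt1 (1.58 CPM), a gamma-glutamyltransferase, were named after their values were seen.

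Of the 11 genes that use glutathione or carry out related thiol reactions, 10 exceeded 1 CPM. Txnrd1, the cytosolic thioredoxin reductase, was highest at 586 CPM, followed by the glutaredoxin gene Glrx3 at 244 CPM. Per kb of exon union the order turned, with the thioredoxin gene Txn1 highest at 179 CPM per kb, ahead of Txnrd1 (82.7 CPM per kb) and, after Gpx4 and Gpx1, Glrx3 (48.7 CPM per kb). Glrx (4.53 CPM) and Glrx5 (0.125 CPM) were the lowest. Gpx4, the glutathione peroxidase that reduces lipid hydroperoxides, stood at 122 CPM. Txn1, Gpx1 and Gpx4 were named after their values were seen. All 8 genes of transcription control exceeded 1 CPM. The highest were Atf4 (360 CPM) and Ddit3 (226 CPM), which encodes CHOP, and the lowest were Keap1 (22.5 CPM), the NRF2 inhibitor, and Maff (8.15 CPM).

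**Figure D5:**
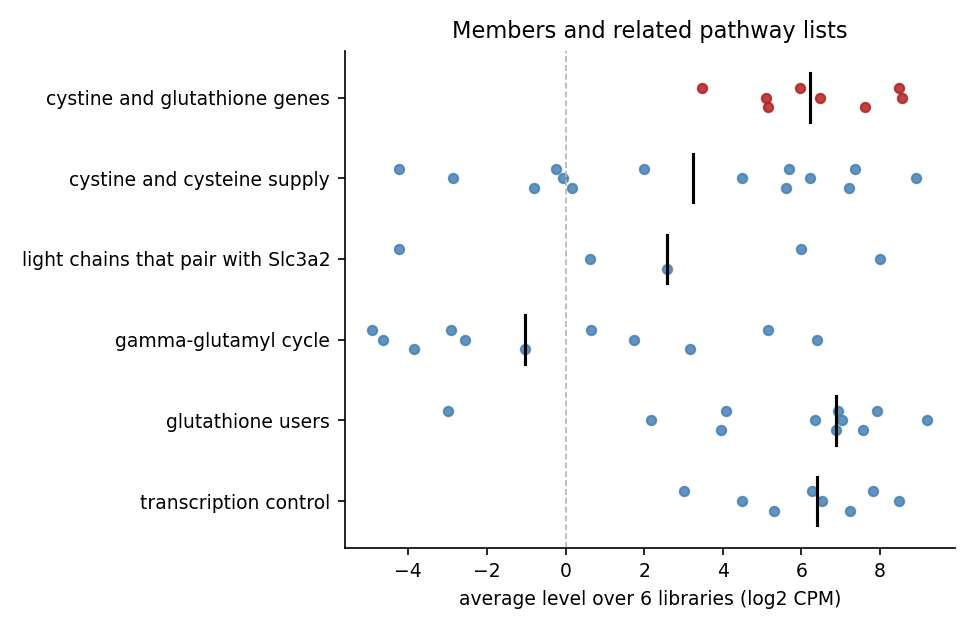
Average level over the 6 libraries (log2 CPM) of the 8 members (red) and of 5 related lists (blue), 1 point a gene, with the median of each list as a black bar and a dashed line at 1 CPM. The members all lie right of the line, and the gamma-glutamyl cycle has the lowest median.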

How the data were processed

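Total RNA of B16F10 cells was sequenced in 6 libraries, 3 with OLO and 3 with OZO, grouped by the sample titles. According to the methods and the submitters' processing notes, the authors aligned paired reads to mm10 with HISAT2 (2.1.0), counted them with featureCounts (2.1.1) and ran limma-voom (3.58.1). The deposited table gives, per gene, the authors' average log2 CPM over all libraries, which was the only value used. Its 5 other numeric columns hold the authors' own comparison of OZO with OLO (log2 fold change, moderated statistic, p-value, adjusted p-value and log odds) and were not used, so no test was made. No value of a single library was used.

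The library size was read from genes without reads, since voom adds 0.5 reads to each count, and reads per library are geometric means less 0.5. Exon unions, transcripts and coding lengths came from GENCODE M21 (GRCm38), which held 23906 of the table's 24126 Ensembl identifiers. Annotation used for counting is not given in the sources used here. Genes in the table carry Entrez identifiers, so the exons counted may differ from those of GENCODE. Every level per kb and every overlap given here rests on the GENCODE exons. Genes named from a list were its 2 highest and 2 lowest by average, besides those said to be named later. Members and lists were chosen with earlier results of these data known. The errors given cover counting only. Python 3.11.15, pandas 2.3.3 and scipy 1.17.1 were used.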

Additional observations from a re-analysis of the deposited data

How the results depend on the processing

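No paired analysis was possible because the value analysed is 1 average over all libraries. For the same reason no test, other pseudocount, filter, replicate block or fit without a library was run for OZO against OLO. Of the 8 members, the number in the highest 25% was 7 among all genes and among genes with a symbol, and 5 among genes with reads. The cut for the upper 75% of genes fell among tied values and kept the same 21154 genes as keeping those with reads. Its result of 5 was thus a repeat and no separate check. The lowest number of reads per library was 218 with or without the 0.5 reads that voom adds. The order of the members rested on the length used. Beside the exon union, 0 of the 8 kept their place with the coding length, 0 with no length scaling, 4 with the longest transcript and 3 with the transcript of the longest coding sequence, the last 2 choices being added after the data were seen. The ratio of Slc7a11 to Slc3a2 turned from 0.266 to 1.18 with the coding length and to 1.05 with no length scaling. The ratio of Gss to Gclm turned from 0.607 to 1.62 with the transcript of the longest coding sequence. Of the 28 recomputed ratios between members, 25 did not cross 1 and 13 were within 1.5-fold of the value reported. These are not separate checks. The 2 choices added later differ in length only for Gss, and for Chac1 and Chac2 both equal the exon union. Above limits of 0.1, 1 and 10 CPM lay 44, 36 and 27 of the 48 list genes.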
